A study of Mus musculus with 6 samples.

Results

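The genes described here encode the translation initiation factors, the proteins that bring ribosomes to mRNA and set them at the start codon. They were taken as all protein-coding genes of the deposited table whose symbol in the mouse annotation GENCODE M21 starts with Eif followed by a digit. This gave 55 of 36065 genes in the table, or 55 of the 21734 protein-coding ones. Another 10 Eif-named records are processed pseudogenes and were left out. RNA was sequenced from 3 groups of wild-type (WT) mouse 1-cell embryos cultured in vitro: CBR+SAM, given CBR-5884 and SAM (S-adenosylmethionine, which supplies methyl groups in cells), CBR, given CBR-5884 alone, and DMSO, the solvent control. CBR-5884 is a serine metabolism inhibitor known as a blocker of phosphoglycerate dehydrogenase, the entry enzyme of serine synthesis. Each group had 2 biological replicates, which makes 6 libraries, and the labels give no age, strain, dose, time, or number of embryos per library. A group given SAM alone is not analysed here.

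Initiation starts when eIF2 carries the initiator tRNA to the small ribosomal subunit together with eIF1, eIF1A, eIF3 and eIF5, while eIF4F (the cap binding protein eIF4E, the scaffold eIF4G and the helicase eIF4A) recruits that subunit to the capped end of an mRNA. eIF2B recharges eIF2 with GTP, and kinases that phosphorylate eIF2alpha slow this step under stress. Oocytes and zygotes make little new mRNA and run on stored maternal messages, so translation is mainly controlled through the cap and the poly(A) tail, partly by oocyte-type factors such as Eif4e1b.

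The unit of the values is not named. They are taken here as abundances per transcript length, like TPM, since kallisto is named and the columns sum to TPM-like totals, and every comparison of levels between genes rests on that reading. They are mRNA levels and say nothing of protein. Whether differences in poly(A) tail length between mRNAs affected their capture, and so these levels, was not tested. The libraries were those of embryos with maternal mRNA: all 12 listed oocyte and zygote markers had a mean of at least 1, and Zp3 of the zona pellucida ranged from 56.7 to 67.1. Of 12 cumulus cell markers 2 reached that mean, and the summed list stood at 616 and 237 in CBR+SAM embryos, 580.0 and 581 in CBR embryos and 533 and 509 in DMSO embryos, nearly all of it Serpine2. The other was Cyp19a1, at 8.14 to 13.6, while Inhbb of that list was listed at 0 in every library. The sums of blood markers ran from 0 to 0.701. Those of oviduct markers ran from 2.89 to 4.70, and those of sperm markers from 11.5 to 16.3. The CBR+SAM replicates differed most from each other: between them 26.3% of the 5939 genes that averaged 10 or more differed by more than 0.5 on the log2 scale, against 6.21% in CBR and 5.84% in DMSO. The columns summed to 956209 to 1059424, and read depth is not given with the values.

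Initiation factor mRNAs made up 0.874% to 1.01% of each library's summed values, and 50 to 54 of the 55 genes had a value of at least 1. Between 15 and 18 genes per library reached 100. The most abundant was Eif1, which guards start codon choice, at 3298 and 3162 in CBR+SAM embryos, 3151 and 3188 in CBR embryos and 3370 and 3056 in DMSO embryos. It lay above 99.8% of protein-coding genes in the table in each library. The lowest was Eif2s3y, the Y-linked copy of the gamma subunit of eIF2, at 0.164 and 0.280 in CBR+SAM embryos, 0.106 and 0.0397 in CBR embryos and 0.0894 and 0.193 in DMSO embryos. Both genes had overlapping groups in CBR against DMSO.

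**Figure D1:**
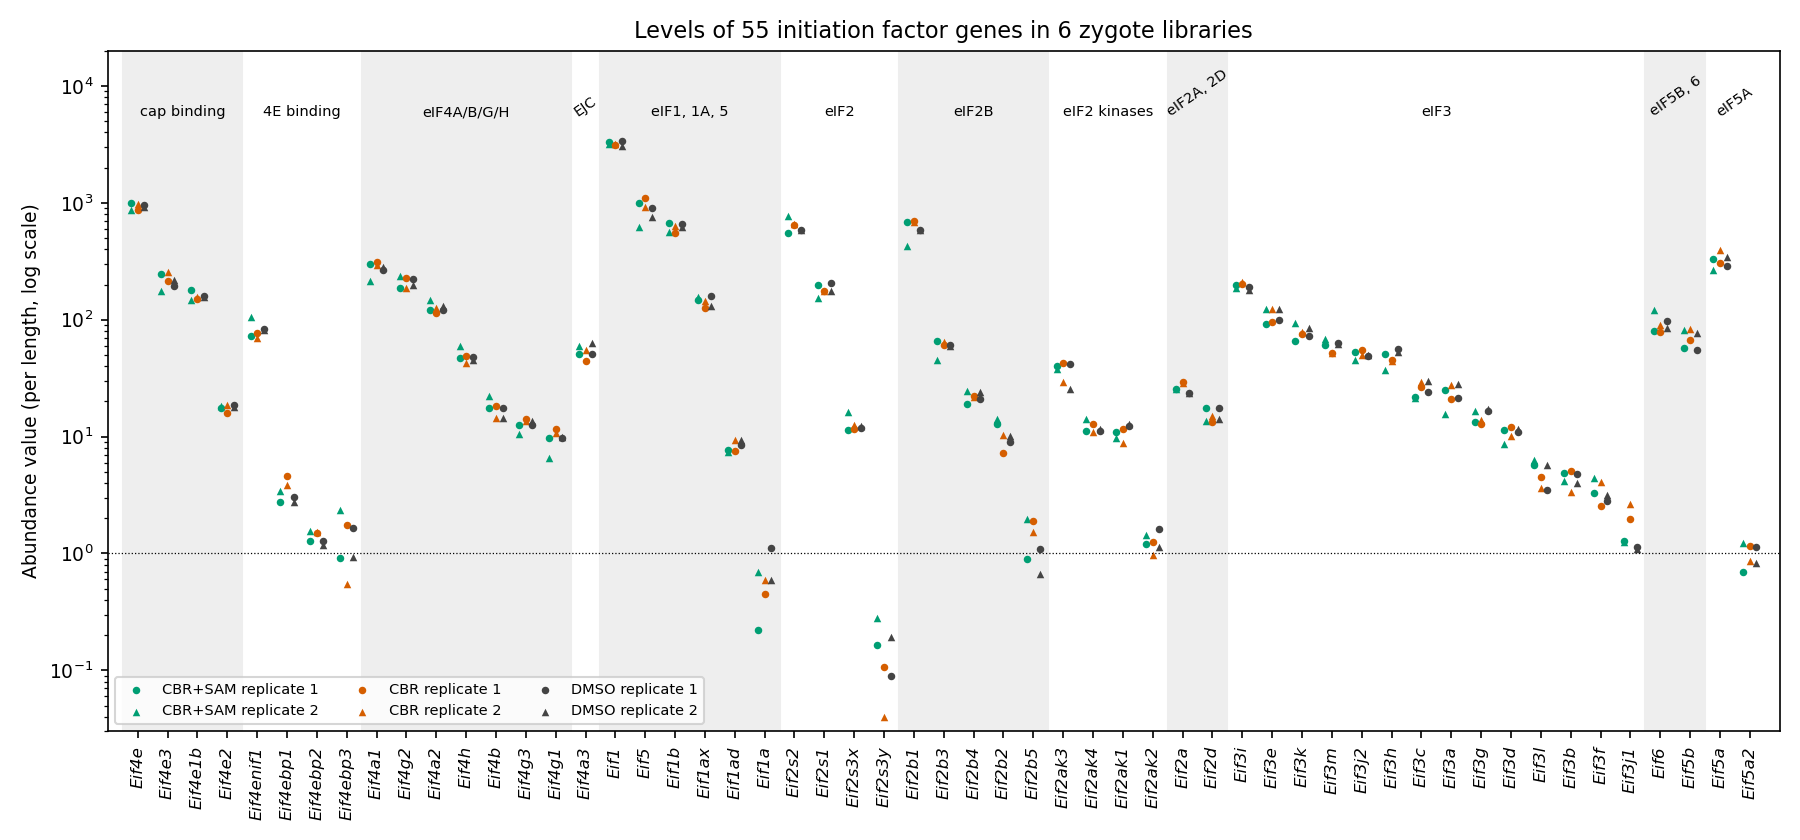
Abundance values (per length, log scale) of the 55 initiation factor genes, grouped by factor complex (EJC, exon junction complex), with 1 point per library. The 3 groups lie close together for most genes, while genes of a single complex differ widely: Eif2b1 averaged 613 and Eif2b5 averaged 1.34.

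Among the cap binding proteins, the general form Eif4e (chromosome 3 at 138526179 to 138559696, build mm10) was the most abundant, at 988 and 867 in CBR+SAM embryos, 862 and 974 in CBR embryos and 966 and 929.5 in DMSO embryos. The 3 groups overlapped. Eif4e1b (ENSMUSG00000074895, chromosome 13 at 54783998 to 54788459), the oocyte-type form, which in frogs sits on stored maternal mRNA together with the eIF4E transporter, stood at 179 and 149 in CBR+SAM embryos, 151 and 156 in CBR embryos and 159 and 156 in DMSO embryos. The highest and the lowest of these values were the CBR+SAM replicates, and both CBR values lay just below both DMSO values. It made up 11.1% to 12.6% of the summed values of the 4 cap binding genes, against 69.1% to 72.3% for Eif4e. The ratio of Eif4e1b to Eif4e was 0.176 ± 0.00726 in CBR+SAM embryos, 0.168 ± 0.0101 in CBR embryos and 0.167 ± 0.00243 in DMSO embryos (mean ± SD, n = 2 each). The ratios in single libraries ran from 0.161 to 0.182, and those of CBR enclosed those of DMSO. With 2 libraries against 2, the smallest two-sided p an exact permutation test allows is 0.333, so the ratio was not tested.

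Eif4e3, an atypical cap binding protein, exceeded Eif4e1b in every library, by 1.18 to 1.65 times, at 244 and 175 in CBR+SAM embryos, 214 and 258 in CBR embryos and 193 and 221 in DMSO embryos. Its shares of the summed cap binding values were 14.4% to 18.3%. Eif4e2, the cap binding protein that represses translation together with Gigyf2, stood at 17.6 and 18.2 in CBR+SAM embryos, 15.8 and 18.7 in CBR embryos and 18.6 and 18.03 in DMSO embryos. It was the least abundant of the 4 in all 6 libraries. For Eif4e1b the log2 change, fitted on log2(value + 1), was -0.04 in CBR against DMSO, with a 95% interval of -0.39 to 0.31, and 0.09 in CBR+SAM against CBR (-0.26 to 0.44). A doubling (a log2 change of 1) lies outside both intervals.

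The RefSeq promoter table (GRCm38.p6, 300 bases per start site) held entries for 43 of the 55 genes and 56 start sites in all, and none for 12 genes, Eif4e1b among them. One of the start sites of Eif4e is printed because Eif4e was the most abundant cap binding mRNA. The start sites of Eif2b1 and Eif2b5 are printed as those of the most and the least abundant subunit of eIF2B. Capitals mark CACGTG, which reads the same on both strands, and TTCCGG on either strand. The sequences cover chr3:138527018-138527317 (plus strand), chr5:124579082-124579381 (minus strand) and chr16:20498567-20498866 (plus strand), each written 5′ to 3′ with the start site after base 250.
Eif4e: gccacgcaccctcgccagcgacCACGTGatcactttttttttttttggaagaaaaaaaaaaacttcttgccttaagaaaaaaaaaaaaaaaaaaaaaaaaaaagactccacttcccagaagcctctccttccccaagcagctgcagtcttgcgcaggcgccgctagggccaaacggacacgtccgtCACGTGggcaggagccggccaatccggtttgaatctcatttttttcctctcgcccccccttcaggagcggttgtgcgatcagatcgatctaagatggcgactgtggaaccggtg
Eif2b1: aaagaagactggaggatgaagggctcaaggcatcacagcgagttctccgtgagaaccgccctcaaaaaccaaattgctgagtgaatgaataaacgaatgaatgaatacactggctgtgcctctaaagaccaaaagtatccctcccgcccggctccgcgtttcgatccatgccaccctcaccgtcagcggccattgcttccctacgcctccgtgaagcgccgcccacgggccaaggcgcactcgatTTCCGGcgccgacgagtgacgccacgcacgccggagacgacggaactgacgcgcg
Eif2b5: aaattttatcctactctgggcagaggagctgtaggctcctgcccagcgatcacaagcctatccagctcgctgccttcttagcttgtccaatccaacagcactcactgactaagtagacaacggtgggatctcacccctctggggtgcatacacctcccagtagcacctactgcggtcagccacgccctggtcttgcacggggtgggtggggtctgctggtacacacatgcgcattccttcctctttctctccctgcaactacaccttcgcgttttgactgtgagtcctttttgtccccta
The printed Eif4e window holds 2 CACGTG and 19 CG pairs, the Eif2b1 window 1 TTCCGG and 31 CG pairs, and the Eif2b5 window neither motif and 9 CG pairs. The other Eif4e start site, at chr3:138525941-138526240 and not printed, holds neither motif and 11 CG pairs. Over the initiation factor start sites CACGTG was found in 21.4% and TTCCGG in 46.4%, with a median of 24 CG pairs. Over all 32851 start sites in the table the shares were 7.15% and 14.9%, with a median of 7 CG pairs. The motifs CACGTG and TTCCGG do not overlap each other, and a match describes letters only.

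The proteins that bind eIF4E were led by Eif4enif1, the eIF4E transporter, at 73.0 and 106 in CBR+SAM embryos, 76.3 and 69.6 in CBR embryos and 83.9 and 80.9 in DMSO embryos. Eif4enif1 differed by 0.53 on the log2 scale between the CBR+SAM replicates. Eif4ebp1, which sequesters eIF4E until mTOR phosphorylates it, stood at 2.74 and 3.41 in CBR+SAM embryos, 4.58 and 3.83 in CBR embryos and 3.04 and 2.73 in DMSO embryos. Both CBR libraries lay above all 4 others for Eif4ebp1. Its relative Eif4ebp2 stood at 1.28 and 1.54 in CBR+SAM embryos, 1.51 and 1.52 in CBR embryos and 1.28 and 1.18 in DMSO embryos. Eif4ebp3 stood at 0.924 and 2.34 in CBR+SAM embryos, 1.76 and 0.549 in CBR embryos and 1.65 and 0.931 in DMSO embryos, and its 3 groups overlapped. Eif4ebp3 shares its transcript sequence with an overlapping gene record (AC115631.1), so its value is uncertain.

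**Figure D2:**
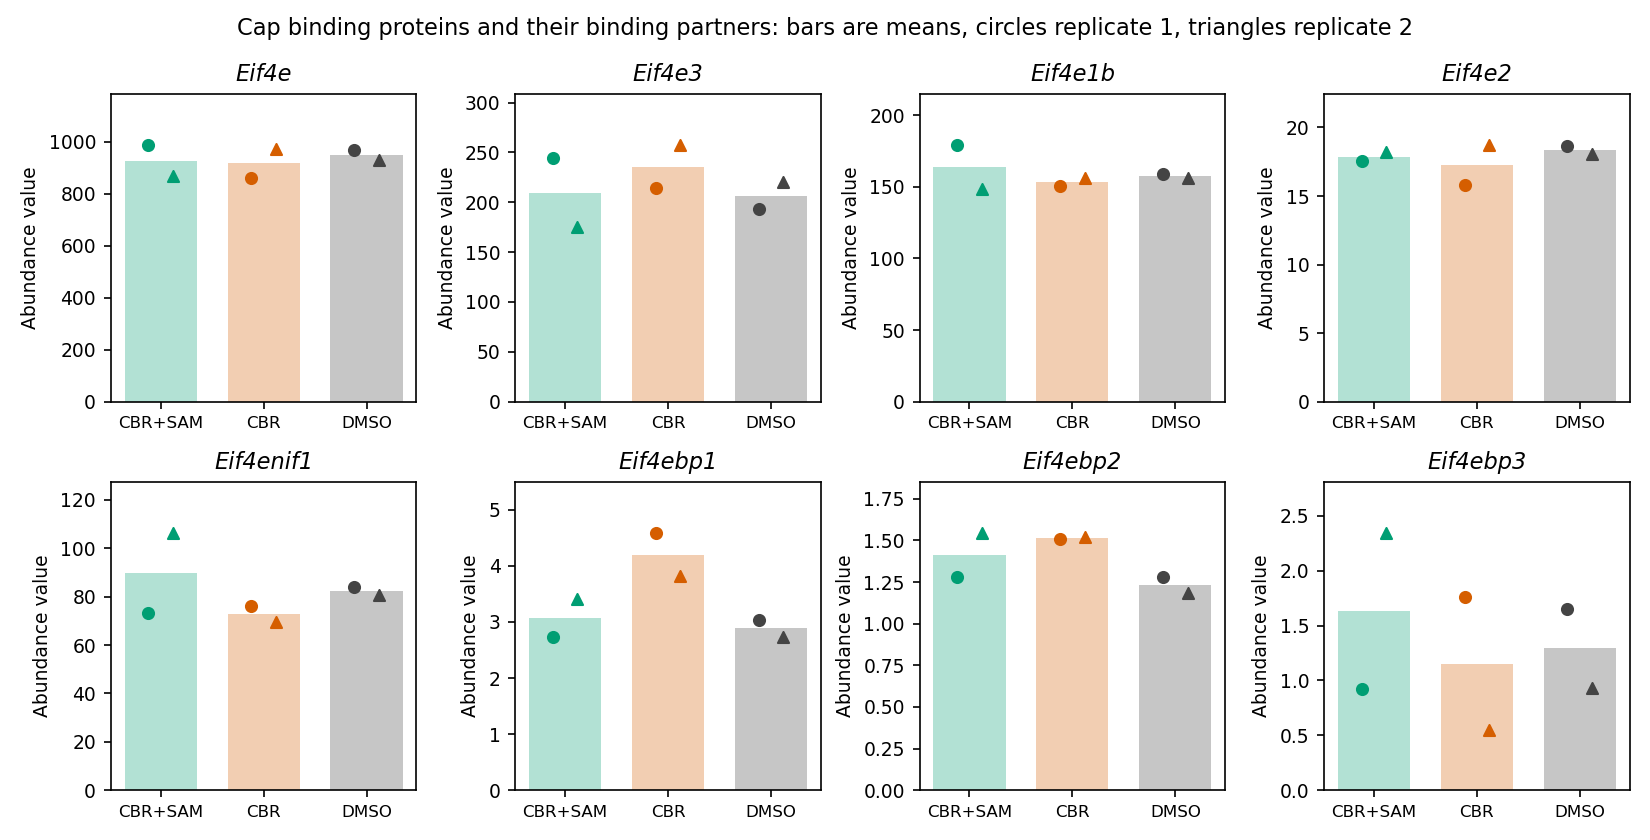
Abundance values of the 4 cap binding genes (top) and 4 genes for their binding partners (bottom) in CBR+SAM, CBR and DMSO embryos, with bars for means, circles for replicate 1 and triangles for replicate 2. Eif4e1b ran from 149 to 179 in all 6 libraries, and Eif4ebp1 stood at 4.58 and 3.83 in CBR embryos, above the 4 other libraries.

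In the rest of eIF4F, the helicase gene Eif4a1 stood at 298 and 213 in CBR+SAM embryos, 310.5 and 294 in CBR embryos and 264 and 282 in DMSO embryos. Its paralog Eif4a2 lay between 114 and 148. The scaffold genes were uneven. Eif4g2, a scaffold that lacks the eIF4E binding site, stood at 185 and 238 in CBR+SAM embryos, 227 and 188 in CBR embryos and 221 and 198 in DMSO embryos. The canonical scaffold Eif4g1 stood at 9.68 and 6.55 in CBR+SAM embryos, 11.5 and 10.6 in CBR embryos and 9.73 and 9.97 in DMSO embryos. The values of Eif4g2 were 17.7 to 36.3 times those of Eif4g1 within a library. CBR+SAM replicate 2 held the highest of these ratios, and the lowest Eif4g1 value. Eif4g3 lay between 10.5 and 14.0, and the helicase cofactors Eif4b and Eif4h between 14.4 and 22.4 and between 42.3 and 59.96. Eif4a3, the helicase of the exon junction complex, lay between 44.1 and 63.3.

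The genes of scanning and start codon choice included, below Eif1, its close relative Eif1b at 554 to 669. Eif5, the GTPase activator of eIF2, stood at 995 and 626 in CBR+SAM embryos, 1092 and 921 in CBR embryos and 904 and 763 in DMSO embryos. The lowest Eif5 value was that of CBR+SAM replicate 2, and both CBR values lay above both DMSO values. For eIF1A, the X-linked gene Eif1ax stood at 149 and 157 in CBR+SAM embryos, 125 and 145 in CBR embryos and 159.6 and 132 in DMSO embryos, and all 6 values lay within 125 to 159.6. Its paralog Eif1a stood at 0.219 and 0.689 in CBR+SAM embryos, 0.454 and 0.588 in CBR embryos and 1.12 and 0.590 in DMSO embryos, too low to be tested, and Eif1ax was 142 to 677 times as high within a library. Eif1ad, which carries an eIF1A-like domain, lay between 7.36 and 9.33. It overlaps the far more abundant Banf1 (mean 482) on the opposite strand over 428 bases, and without strand marking in the protocols the reads there cannot be told apart.

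The mRNAs of the 3 eIF2 subunits stood at unequal levels. Eif2s2 (beta) stood at 549 and 777 in CBR+SAM embryos, 644 and 660.3 in CBR embryos and 580.3 and 581 in DMSO embryos. Eif2s1 (alpha), the subunit that stress kinases phosphorylate, stood at 196 and 153 in CBR+SAM embryos, 175 and 177 in CBR embryos and 204 and 175 in DMSO embryos. Eif2s3x (gamma), the X-linked gene whose product holds the initiator tRNA, stood at 11.3 and 16.2 in CBR+SAM embryos, 11.6 and 12.5 in CBR embryos and 11.9 and 12.4 in DMSO embryos. The groups overlapped for Eif2s1 and Eif2s3x between CBR and DMSO, whereas both CBR values of Eif2s2 lay above both DMSO values. On the per-length scale Eif2s2 was 2.80 to 5.07 times Eif2s1, and Eif2s1 was 9.46 to 17.3 times Eif2s3x.

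The 5 subunits of eIF2B spanned a wider range. Eif2b1 (alpha) stood at 689.6 and 425 in CBR+SAM embryos, 703 and 688 in CBR embryos and 586 and 588 in DMSO embryos. Eif2b5, the catalytic epsilon subunit, stood at 0.904 and 1.99 in CBR+SAM embryos, 1.88 and 1.52 in CBR embryos and 1.09 and 0.667 in DMSO embryos. For both genes the CBR values lay above the DMSO values, and the CBR+SAM replicates spread across or beyond that range. Their ratio within a library ran from 214 to 881. Between them were Eif2b3 (gamma) at 45.6 to 65.9, Eif2b4 (delta) at 18.9 to 24.7 and Eif2b2 (beta) at 7.27 to 14.3. Eif2b4 overlaps Snx17 (mean 7.57) on the opposite strand over 204 bases.

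Of the 4 eIF2alpha kinases, Eif2ak3 (PERK, which answers stress of the endoplasmic reticulum) was the highest, at 40.3 and 38.0 in CBR+SAM embryos, 42.9 and 29.2 in CBR embryos and 41.7 and 25.4 in DMSO embryos. The replicates of Eif2ak3 differed by 0.54 in CBR and 0.69 in DMSO on the log2 scale, and no other initiation factor gene that averaged 10 or more differed by more than 0.5 in those groups. Eif2ak4 (GCN2), which senses amino acid lack through uncharged tRNA, stood at 11.1 and 14.2 in CBR+SAM embryos, 12.8 and 11.1 in CBR embryos and 11.3 and 11.7 in DMSO embryos. Its log2 change was 0.05 in CBR against DMSO (95% interval -0.39 to 0.48, adjusted p = 1, limma). Eif2ak1 (HRI, regulated by heme) lay between 8.89 and 12.7, and overlaps Aimp2 (mean 25.0) on the opposite strand over 488 bases. Eif2ak2 (PKR, activated by double-stranded RNA) was the lowest, at 1.195 and 1.44 in CBR+SAM embryos, 1.25 and 0.964 in CBR embryos and 1.62 and 1.13 in DMSO embryos. Of the factors that can deliver tRNA outside the eIF2 route, Eif2a stood at 25.5 and 25.7 in CBR+SAM embryos, 29.4 and 28.6 in CBR embryos and 23.4 and 23.6 in DMSO embryos. Eif2d stood at 17.7 and 13.5 in CBR+SAM embryos, 13.4 and 14.9 in CBR embryos and 17.5 and 14.2 in DMSO embryos.

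The 14 genes of eIF3, the large complex that bridges the small subunit and eIF4F, spread over a wide range of levels. The highest was Eif3i at 199 and 186 in CBR+SAM embryos, 203 and 209 in CBR embryos and 191 and 179 in DMSO embryos. The lowest was Eif3j1, with a mean of 1.56. Eif3e averaged 109, Eif3k 78.1, Eif3m 59.8, Eif3j2 50.2 and Eif3h 47.5. Eif3c (25.5), Eif3a, the scaffold of the complex (23.1), Eif3g (15.1) and Eif3d, a subunit with cap binding activity of its own (10.8), were in the middle. Eif3l averaged 4.90, Eif3b 4.38 and Eif3f 3.38. Eif3i lay above 96.3% to 96.7% of protein-coding genes in the table, while Eif3f, a subunit of the same complex, lay between 2.57 and 4.41.

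Downstream of start codon choice, Eif6, which keeps the large subunit apart until it is needed, stood at 80.6 and 120.3 in CBR+SAM embryos, 79.1 and 89.8 in CBR embryos and 97.9 and 85.4 in DMSO embryos. Eif5b, the GTPase that joins the subunits, stood at 57.5 and 82.0 in CBR+SAM embryos, 67.6 and 83.6 in CBR embryos and 55.5 and 76.4 in DMSO embryos. In each group replicate 2 was the higher for Eif5b, which overlaps Rev1 (mean 73.6) on the opposite strand over 421 bases. Eif5a, the hypusine-carrying factor that helps ribosomes through stalling sites, stood at 333 and 264 in CBR+SAM embryos, 307 and 395 in CBR embryos and 286 and 346 in DMSO embryos. Its paralog Eif5a2 stood at 0.698 and 1.24 in CBR+SAM embryos, 1.15 and 0.860 in CBR embryos and 1.14 and 0.824 in DMSO embryos, and Eif5a was 213 to 478 times as high.

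Near-identical records elsewhere in the genome can take reads from a gene. A search of the M21 transcripts found, for 12 of the 55 genes, records elsewhere with at least 97% identity over at least 200 bases, and 7 genes overlapped a neighbour with shared sequence. For 37 genes neither was found. Eif4a1 matched the processed pseudogene Eif4a-ps4 over 1218 bases with 1 difference, G534A, in which the position is counted from the first matched base, the Eif4a1 base stands first and that of the pseudogene last. The difference lies in the coding sequence, in exon 6 of 11. Because that base is the 1 difference within the match, the stretch with 30 bases on each side is printed, with the differing base in capitals (Eif4a1, chr11:69668704-69669088, minus strand, across the junction of exons 5 and 6, and Eif4a-ps4, chr1:60704435-60704495, plus strand, GRCm38).
Eif4a1: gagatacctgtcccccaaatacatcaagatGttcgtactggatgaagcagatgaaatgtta
Eif4a-ps4: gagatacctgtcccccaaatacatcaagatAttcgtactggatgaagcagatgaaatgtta
Eif4a-ps4 stood at 48.7 and 0.431 in CBR+SAM embryos, 0.985 and 35.1 in CBR embryos and 18.4 and 30.02 in DMSO embryos. It was thus near 0 in 1 library of CBR+SAM and in 1 of CBR. Eif4a1 and its copies together came to 346 and 214 in CBR+SAM embryos, 312 and 329 in CBR embryos and 283 and 312 in DMSO embryos. Alone, both CBR values of Eif4a1 lay above both DMSO values. With the copies those groups overlapped, at 311.6 in CBR replicate 1 and 312.1 in DMSO replicate 2.

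Eif3j1 and Eif3j2 are a pair of the same kind, with 99.4% identity over 2379 bases, the full length of Eif3j2. Eif3j2 stood at 52.4 and 45.3 in CBR+SAM embryos, 55.1 and 49.9 in CBR embryos and 48.6 and 49.9 in DMSO embryos. Eif3j1 stood at 1.27 and 1.25 in CBR+SAM embryos, 1.96 and 2.66 in CBR embryos and 1.13 and 1.10 in DMSO embryos. Summed, the pair stood at 53.7 and 46.6 in CBR+SAM embryos, 57.1 and 52.5 in CBR embryos and 49.7 and 51.0 in DMSO embryos. How the reads were divided between the pair is uncertain. Of the remaining matches, those of Eif1 were the largest in absolute terms: 8 records elsewhere in the genome, which together averaged 223 against 3204 for Eif1 itself.

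**Figure D3:**
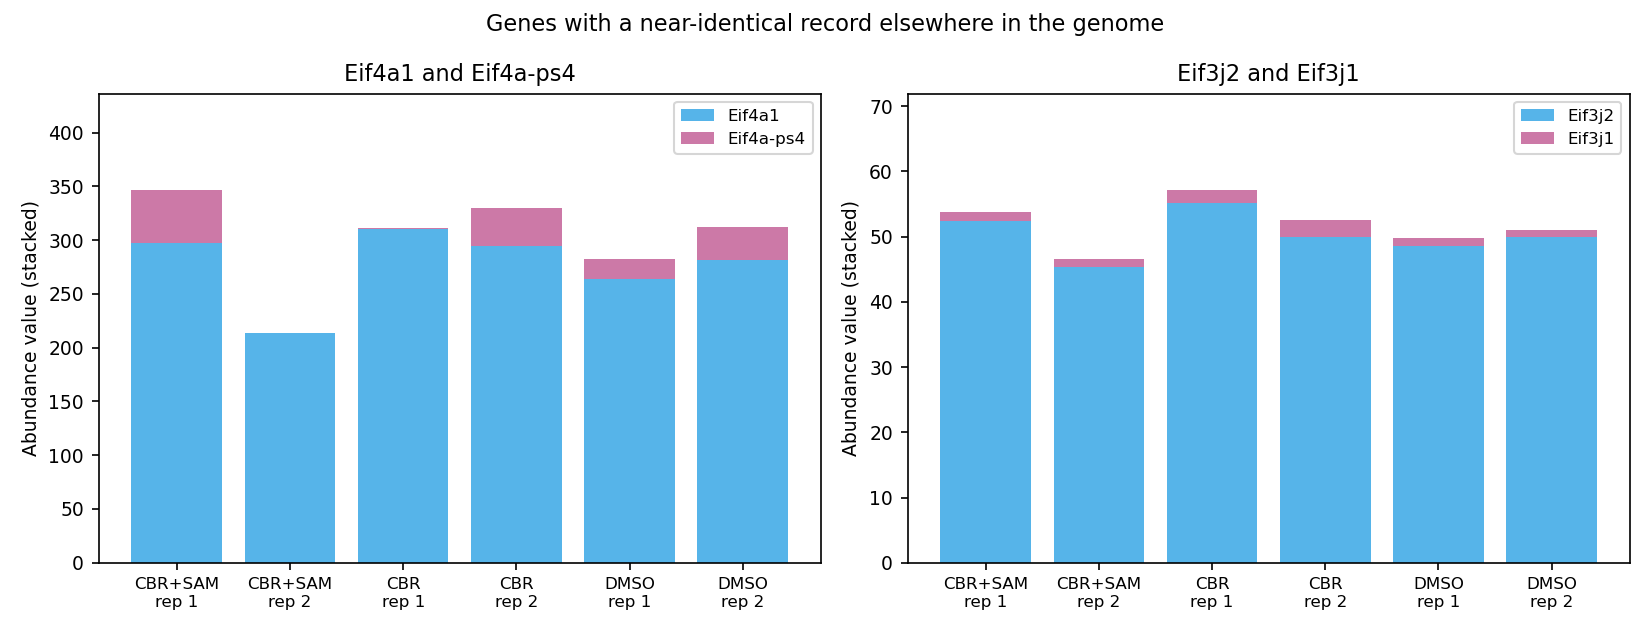
Stacked abundance values of Eif4a1 with the processed pseudogene Eif4a-ps4 (left) and of Eif3j2 with Eif3j1 (right) in each library of CBR+SAM, CBR and DMSO embryos. Eif4a-ps4 was near 0 in CBR+SAM replicate 2 and CBR replicate 1 and reached 48.7 in CBR+SAM replicate 1, and Eif3j1 was a small part of its pair throughout.

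The comparison of CBR with DMSO asked whether inhibition of serine metabolism changed these mRNAs. No initiation factor gene passed the test. The fit was limma on log2(value + 1) over the 12249 genes that reached 1 in 2 or more libraries, with p-values adjusted by Benjamini-Hochberg over all of them and a threshold of 0.05. Of the 55 genes 53 were tested, all but Eif1a and Eif2s3y, and none entered through 1 group alone. The count called was 0 of 53, against 0% of all genes tested. An unadjusted p under 0.05 was reached by 1 of the 53 genes, against 2.12% of all genes tested. That gene lay above DMSO, where 0.816% of all genes were, and 0 lay below, where 1.31% were. With 1 library left out in turn the count ran from 0 to 5, reaching 5 when either CBR+SAM library was left out. Over all genes it ran from 159 to 539, against 260 with all libraries. The groups did not overlap for 17 genes, against 33% of all genes tested: 11 that lay above and 6 that lay below, against 15.7% and 17.3%. The median log2 change was -0.02 for the initiation factor genes and -0.01 for all genes tested, with 23 of 53 above 0 against 48.3% of all genes. Fitted changes ran from -0.31 to 0.64. The 41 initiation factor genes that averaged 10 or more all had fitted changes within 0.5 and 95% intervals within 1 on the log2 scale. The share over all genes of that level was not counted, so this is no trait of the initiation factor genes in particular. Over the 53, 51 were within 0.5, against 95.8% of all genes tested. The values are scaled by library, so a change in the total mRNA of the embryos would not show in them. The p-values here measure only the spread between these libraries.

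The genes with the smallest p-values and non-overlapping groups on the higher side were Eif3j1, Eif4ebp1 and Eif2a. Eif3j1 (ENSMUSG00000027236, chromosome 2 at 122028546 to 122056598) had 1.96 and 2.66 in CBR embryos, against 1.13 and 1.10 in DMSO embryos, a log2 change of 0.64 (SE 0.21, adjusted p = 1, limma). At such low levels the size depends on the pseudocount, and it was 0.97 with a pseudocount of 0.1. Its near-identical partner Eif3j2 had 55.1 and 49.9 in CBR embryos and 48.6 and 49.9 in DMSO embryos, and its CBR replicates differed from each other by more than either whole Eif3j1 value. Eif4ebp1 had 4.58 and 3.83 in CBR embryos, against 3.04 and 2.73 in DMSO embryos, a log2 change of 0.42 (SE 0.20, adjusted p = 1, limma). Eif2a had 29.4 and 28.6 in CBR embryos, against 23.4 and 23.6 in DMSO embryos, a log2 change of 0.29 (SE 0.14, adjusted p = 1, limma).

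On the lower side were Eif3m, Eif3g and Eif2ak1. Eif3m (chromosome 2 at 104999656 to 105017080), a subunit of eIF3, had 51.5 in both CBR libraries, against 63.6 and 62.4 in DMSO embryos. Its log2 change was -0.29 (SE 0.14, adjusted p = 1, limma). Eif3g had 12.9 and 14.0 in CBR embryos, against 16.4 and 17.3 in DMSO embryos, a log2 change of -0.31 (SE 0.17). Eif2ak1 had 11.5 and 8.89 in CBR embryos, against 12.4 and 12.7 in DMSO embryos, a log2 change of -0.28 (SE 0.19), which was -0.11 without CBR replicate 2 and -0.45 without CBR replicate 1. All 3 had an adjusted p of 1 by limma. The Eif3m interval ran from -0.62 to 0.05.

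**Figure D4:**
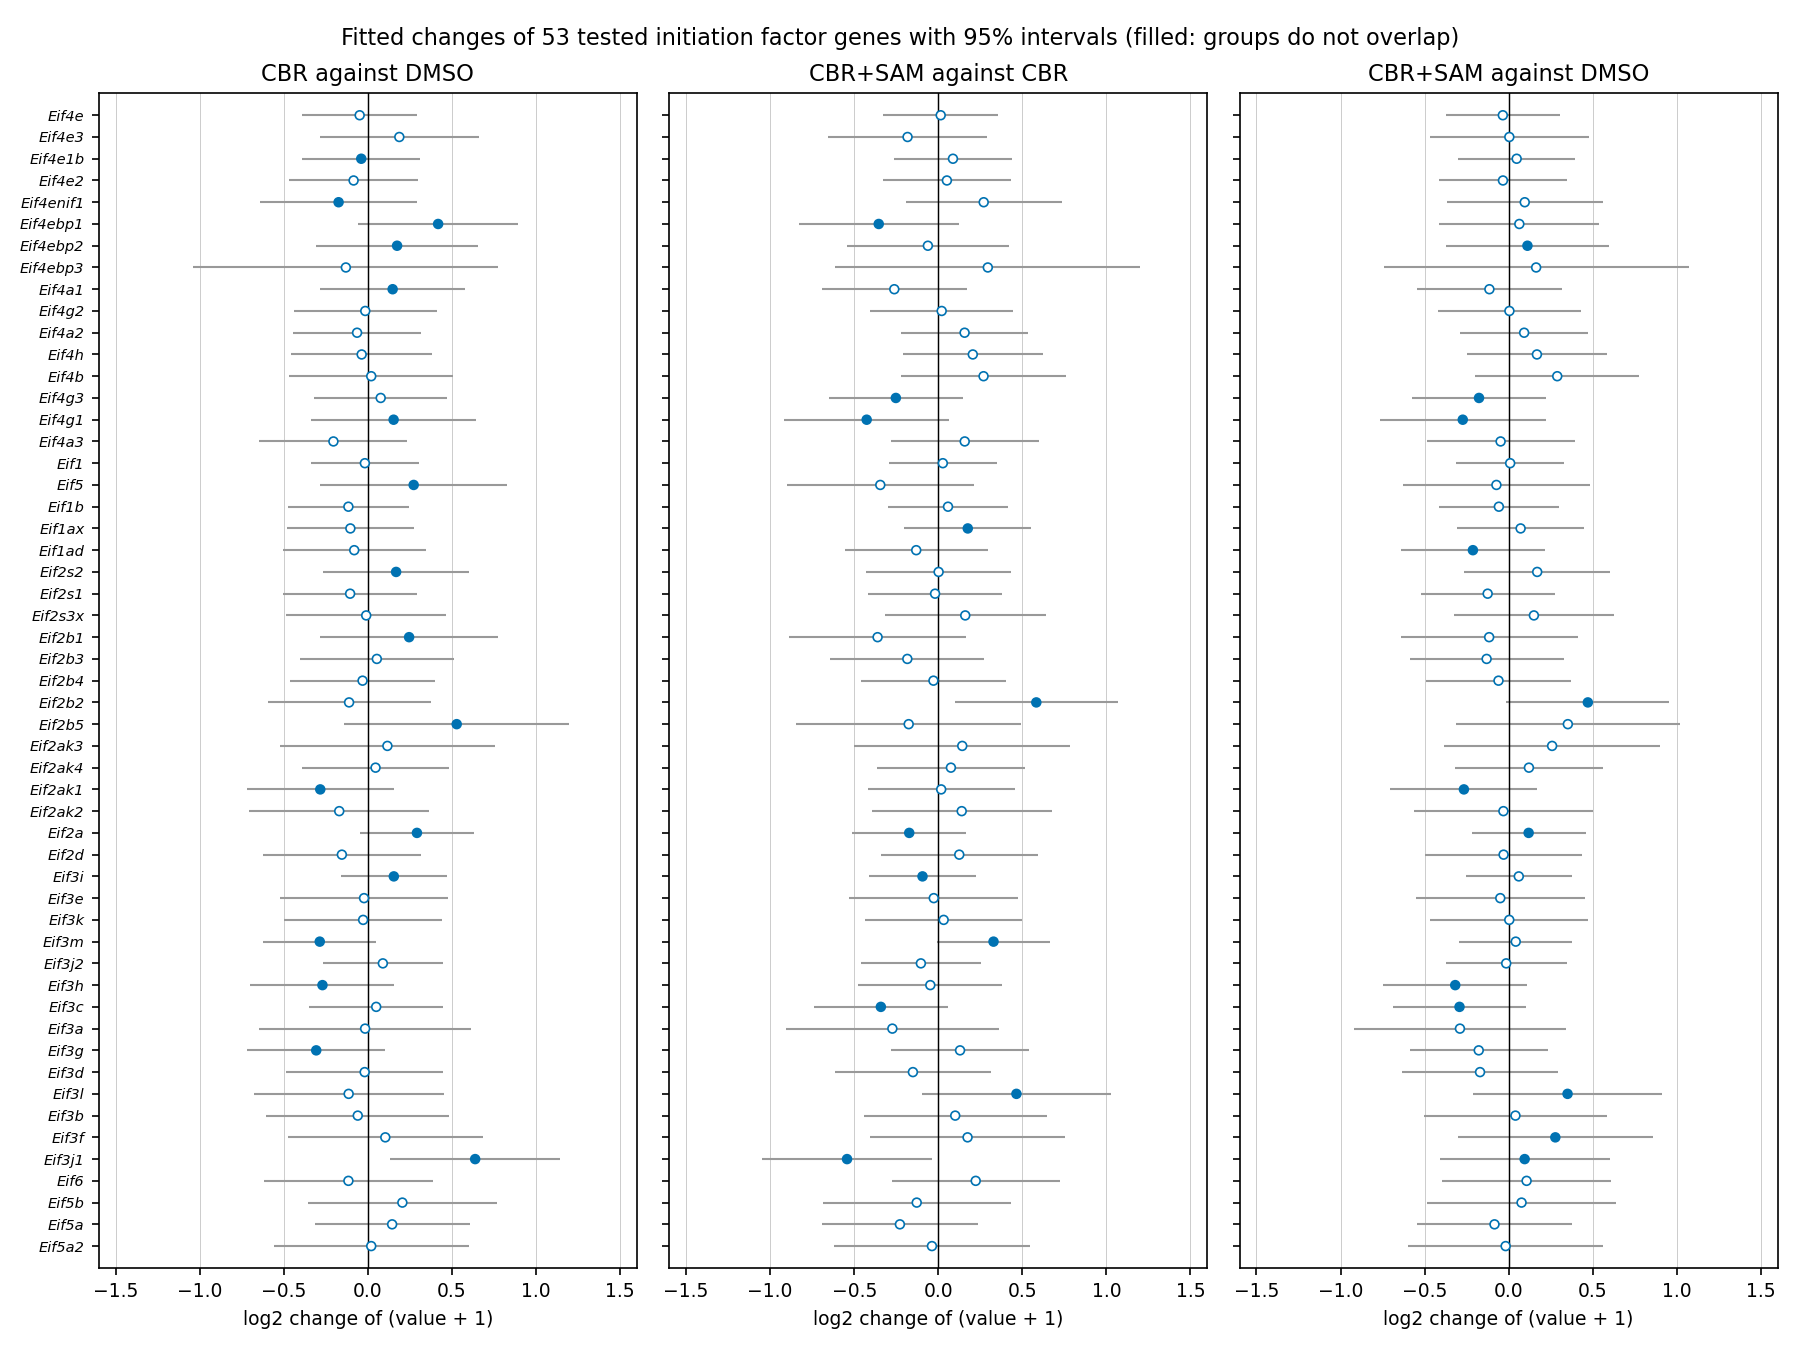
Fitted changes of log2(value + 1) for the 53 tested initiation factor genes with 95% intervals from limma, for CBR against DMSO, CBR+SAM against CBR and CBR+SAM against DMSO. Filled points mark genes whose groups do not overlap, 17, 11 and 12 in the 3 panels, and no gene passed the adjusted threshold in any panel.

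Setting CBR+SAM against CBR asked whether the methyl donor changed these mRNAs in inhibited embryos. None of the 53 genes was called, against 0.00816% of all genes tested. An unadjusted p under 0.05 was reached by 2 genes, against 3.09% of all genes tested, with 1 above CBR (1.73%) and 1 below (1.36%). Leaving out either CBR+SAM library moved this count and that over all genes. Such a fit keeps 1 library in that group and loses its spread, so what moved the counts was not tested. The groups did not overlap for 11 genes, against 27.5% of all genes tested, with 4 above CBR (15%) and 7 below (12.5%). The median log2 change was 0.01 for both the initiation factor genes and all genes tested, and fitted changes ran from -0.54 to 0.58. Of the 53, 51 lay within 0.5, against 94% of all genes, and 28 lay above 0, against 52.4%.

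Eif2b2 (chromosome 12 at 85219481 to 85226628), the beta subunit of eIF2B, had 12.7 and 14.3 in CBR+SAM embryos, against 7.27 and 10.3 in CBR embryos, a log2 change of 0.58 (SE 0.21, adjusted p = 0.988, limma). It was 0.36 without CBR replicate 1 and 0.81 without CBR replicate 2. Eif3m had 61.0 and 69.0 in CBR+SAM embryos, against 51.5 in both CBR libraries, a log2 change of 0.33 (SE 0.14). Eif3l had 5.74 and 6.27 in CBR+SAM embryos, against 4.53 and 3.65 in CBR embryos, a log2 change of 0.47 (SE 0.24). These 3 lay above CBR in both libraries without passing the test.

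On the other side Eif3j1 had 1.27 and 1.25 in CBR+SAM embryos, against 1.96 and 2.66 in CBR embryos, a log2 change of -0.54 (SE 0.21), with the same uncertainty of read division as above. Eif4g1 had 9.68 and 6.55 in CBR+SAM embryos, against 11.5 and 10.6 in CBR embryos, a log2 change of -0.43 (SE 0.21), which was -0.18 without CBR+SAM replicate 2 and -0.68 without CBR+SAM replicate 1. Eif3c had 22.0 and 21.5 in CBR+SAM embryos, against 26.5 and 29.1 in CBR embryos, a log2 change of -0.34 (SE 0.17). All of these had an adjusted p of 0.988 by limma.

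For CBR+SAM against DMSO, which shares libraries with both comparisons above, 0 of the 53 genes were called, against 0.00816% of all genes tested. None reached an unadjusted p under 0.05, against 2.14% of all genes tested (1.01% above DMSO and 1.13% below). Leaving out CBR+SAM replicate 1 raised this count and that over all genes, in a fit that keeps 1 library of that group. The groups did not overlap for 12 genes, against 24.5% of all genes tested, with 6 above DMSO (12.4%) and 6 below (12.1%). Fitted changes ran from -0.32 to 0.47, within 0.5 for all 53, against 95.5% of all genes, and 28 lay above 0, against 49%. Eif2b2 had 12.7 and 14.3 in CBR+SAM embryos, against 8.91 and 10.03 in DMSO embryos, a log2 change of 0.47 (SE 0.21, adjusted p = 1, limma). Eif3l had 5.74 and 6.27 in CBR+SAM embryos, against 3.52 and 5.68 in DMSO embryos, a log2 change of 0.35, which was 0.07 without DMSO replicate 1 and 0.63 without DMSO replicate 2. Eif3f had 3.26 and 4.41 in CBR+SAM embryos, against 2.79 and 3.14 in DMSO embryos, a log2 change of 0.28, which was 0.11 without CBR+SAM replicate 2 and 0.45 without CBR+SAM replicate 1. Below DMSO, Eif3h had 50.6 and 36.9 in CBR+SAM embryos, against 55.9 and 52.4 in DMSO embryos, a log2 change of -0.32, which was -0.10 without CBR+SAM replicate 2 and -0.54 without CBR+SAM replicate 1. Eif3c had 22.0 and 21.5 in CBR+SAM embryos, against 24.1 and 29.9 in DMSO embryos, a log2 change of -0.29, which was -0.44 without DMSO replicate 1 and -0.14 without DMSO replicate 2. Eif2ak1 had 10.9 and 9.71 in CBR+SAM embryos, against 12.4 and 12.7 in DMSO embryos, a log2 change of -0.27.

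The replicates also differed from each other. Over the 41 genes that averaged 10 or more, the median absolute log2 difference between the replicates was 0.34 in CBR+SAM, 0.15 in CBR and 0.11 in DMSO, against 0.31, 0.15 and 0.14 over all 5939 such genes in the table. More than 0.5 separated the replicates of 9 genes in CBR+SAM, 1 in CBR and 1 in DMSO. In CBR+SAM these were Eif4enif1, Eif5b, Eif6, Eif3k and Eif2s2, which were higher in replicate 2, and Eif5, Eif3a, Eif2b3 and Eif2b1, which were lower there. The same library held the low Serpine2 value of 224.5. The part of either in the comparisons with CBR+SAM was not tested beyond leaving that library out.

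**Figure D5:**
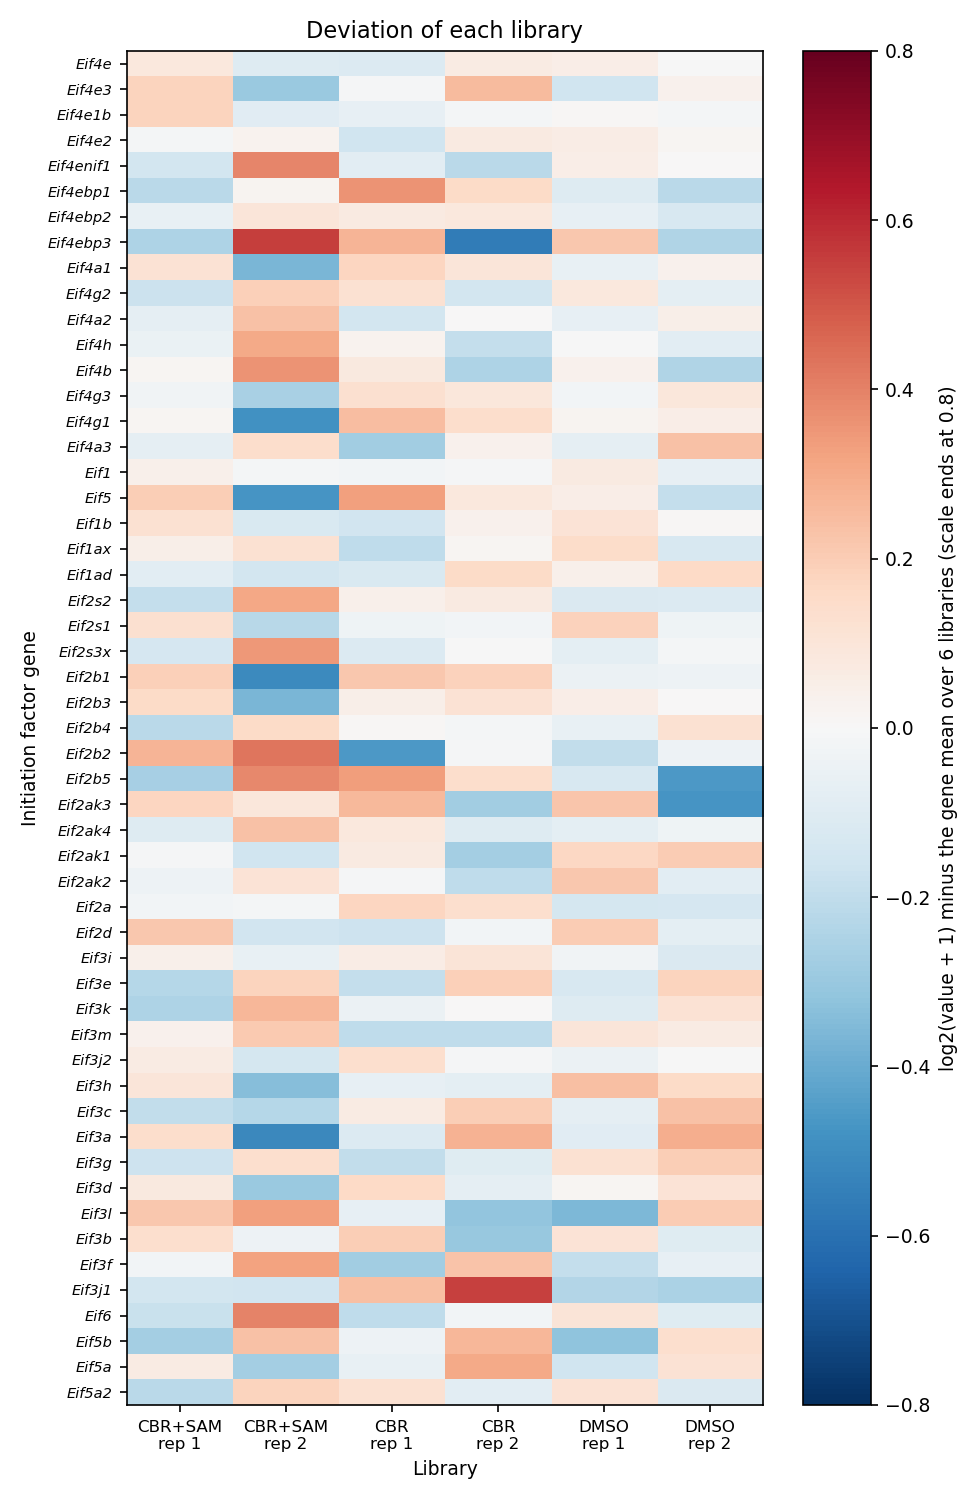
Deviation of each library from the gene's mean over the 6 libraries, as log2(value + 1), for the 53 tested initiation factor genes; the colour scale ends at 0.8. CBR+SAM replicate 2 holds many of the strongest deviations. The CBR+SAM replicates differed by more than 0.5 for 9 genes.

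The other translation genes came from lists of partners: release and recycling of ribosomes, elongation, poly(A) binding and cap regulation, and relatives of the initiation factors. Of these 43 genes 38 were tested, and 0 were called in CBR against DMSO, in CBR+SAM against CBR or in CBR+SAM against DMSO (limma). Their median log2 changes were -0.02, 0.05 and 0.01. Of the relatives, Bzw1, which mimics eIF5, averaged 25.1 and Denr, a partner of Mcts1 in recycling and reinitiation, averaged 35.1. In the poly(A) and cap regulation list Paip1, which binds the poly(A) binding protein, was the highest with a mean of 479. Ppp1r15a, a phosphatase subunit that reverses eIF2alpha phosphorylation, had the smallest unadjusted p of that list in CBR against DMSO. It stood at 12.3 and 12.98 in CBR+SAM embryos, 17.9 and 19.0 in CBR embryos and 15.3 and 12.2 in DMSO embryos. Both CBR values of Ppp1r15a lay above the 4 others. The log2 change of Ppp1r15a was 0.40 in CBR against DMSO (95% interval -0.01 to 0.81, adjusted p = 1, limma) and -0.51 in CBR+SAM against CBR (95% interval -0.92 to -0.10, adjusted p = 0.988, limma).

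In the elongation list Eef1e1, an elongation factor by name only, was the highest, with a mean of 169. Eef1a1, the tRNA carrier of elongation, followed with a mean of 156. Eef1a1 had the smallest unadjusted p of the list in CBR against DMSO, at 142 and 124 in CBR embryos and 179 and 143 in DMSO embryos (adjusted p = 1, limma). Eef1g, of the same list, had the smallest p in both comparisons with CBR+SAM and stood at 1.70 and 2.27 in CBR+SAM embryos, 3.15 and 3.05 in CBR embryos and 2.89 and 2.54 in DMSO embryos. In the termination and recycling list Hbs1l was the highest, with a mean of 75.7. Abce1, which splits ribosomes after termination, had the smallest unadjusted p in CBR against DMSO, at 19.4 and 21.1 in CBR embryos and 24.4 and 23.5 in DMSO embryos (adjusted p = 1, limma). Gspt1, a release factor gene, had the smallest p of that list in both comparisons with CBR+SAM and stood at 42.6 and 67.7 in CBR+SAM embryos, 44.5 and 32.8 in CBR embryos and 41.9 and 40.7 in DMSO embryos. No gene of these lists had an adjusted p below 0.988 by limma. The oocyte-type poly(A) binding protein gene Pabpc1l, named after its values were seen, stood at 32.1 and 55.5 in CBR+SAM embryos, 35.7 and 35.1 in CBR embryos and 36.6 and 35.8 in DMSO embryos, above the general form Pabpc1, which lay between 1.02 and 5.47. Pabpc4, another poly(A) binding protein gene of the lists, lay above Pabpc1l, between 85.7 and 117.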

How the data were processed

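The deposited table holds 1 column per library, with values the unit of which the authors do not name. They are treated as a signal: abundances per gene, scaled by length and library, as kallisto gives them. fastp, kallisto, DESeq2 and the build mm10 are named in the submitters' processing notes, with no versions or roles. The columns do not sum to the same total, so a further scaling step may have been applied, and depth is not given in the sources used here. Per the labels' protocols, cDNA came from SMART-Seq v4 and library construction from Nextera XT. The protocols name no molecular identifiers and no strand marking. Every sample column was used (0 left out).

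Of 36065 records 35768 were matched to GENCODE M21. Values were tested with limma 3.58.1 (R 4.3.3, trended variance) on log2(value + 1), over genes that reached 1 in 2 or more libraries, with all 3 groups in 1 fit. Near-identical records were searched with blastn 2.17.0. Named genes are the 3 per direction with the smallest p among genes whose groups do not overlap, the highest and lowest of each complex, and the cap binding genes with their partners. The genes and lists were chosen with earlier results of these data known. Alternatives covered the pseudocount, filter, scaling, replicate block, library weights, the libraries in the fit, protein-coding genes alone and each library left out.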

Additional observations from a re-analysis of the deposited data

How the results depend on the processing

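No initiation factor gene was called under any of the 15 alternatives in any of the 3 comparisons (limma). In CBR against DMSO, 4 reached an unadjusted p under 0.05 (limma) with library weights and 5 with only the 4 libraries compared, against 1. The count over all genes moved with the settings too. It ran from 77 to 882 over the alternatives, against 260, and the number of genes tested changed with the filter. The ends of that range came with other filters, 77 with a mean of at least 10 and 882 with no filter. That range is therefore no like background for the counts of 4 and 5. Whether the rise was particular to the initiation factor genes was not tested. Over all genes, CBR+SAM against CBR and CBR+SAM against DMSO called 1 gene each, and 0 with a pseudocount of 0.1, with no filter, with a mean of at least 10, or with protein-coding genes alone. CBR against DMSO called 0 genes, and 1 with only the 4 libraries compared. With each library left out in turn the counts ran from 0 to 2 for CBR against DMSO, 0 to 8 for CBR+SAM against CBR and 0 to 3 for CBR+SAM against DMSO. The median log2 change of the initiation factor genes was -0.0581, -0.0268 and -0.0785 in the same order with each library scaled to an equal sum, and -0.018 to 0.0195, -0.0269 to 0.0162 and 0.00413 to 0.0577 with a library left out. Scaling to an equal sum divides each library by its own total, so it lowers log2 changes for a group with larger totals. These totals were 984962 and 956209 for DMSO, 994268 and 1004406 for CBR, and 998179 and 1059424 for CBR+SAM. The cause of the moves with a library left out was not tested. Eif4e1b changed sign: -0.0352 in CBR+SAM against DMSO after that scaling, and without CBR+SAM replicate 1 it was -0.0478 against CBR and -0.0874 against DMSO. Against DMSO it was 0.183 without CBR+SAM replicate 2. The ratio of Eif4e1b to Eif4e ran from 0.171 to 0.182 in CBR+SAM, 0.161 to 0.175 in CBR and 0.165 to 0.168 in DMSO with a library left out.

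Same-numbered replicates deviated together by a correlation of 0.39 between CBR and DMSO, 0.22 between CBR+SAM and DMSO and 0.09 between CBR+SAM and CBR over all genes tested, and 0.56, -0.06 and -0.12 over the initiation factor genes. With 2 pairs a comparison they were taken to share only a number. With the replicate block CBR against DMSO called 0 genes and each comparison with CBR+SAM called 1, with 0 initiation factor genes in each. With 2 libraries a group, the median half-width of the 95% intervals was 0.46 on the log2 scale in CBR against DMSO, so smaller changes could not be resolved.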

Other observations

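Some initiation factor genes differed in the same direction between replicates 1 and 2 of every group. This held for 14 of the 53 tested genes (26.4%), against 32.6% of all 12249 genes tested. Of the 14, Eif5b, the subunit joining GTPase, was higher in replicate 2 by 0.51 in CBR+SAM, 0.30 in CBR and 0.45 in DMSO on the log2 scale. Eif3e was higher there by 0.41, 0.38 and 0.30 in the same order of groups, while Eif5, the GTPase activator of eIF2, was lower by log2 values of -0.67, -0.25 and -0.24.

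The 10 Eif-named processed pseudogenes summed to 68.7 and 10.7 in CBR+SAM embryos, 20.7 and 44.4 in CBR embryos and 38.9 and 41.8 in DMSO embryos. The group ranges overlapped, and Eif4a-ps4 gave the largest single value.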
